A study of Mus musculus with 4 samples.

Results

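ATP-binding cassette (ABC) transporters and organic ion transporters were examined in mesothelial cells of the mouse peritoneum. The genes were taken by symbol from the deposited table: Abca to Abcg followed by a number, Slc22a, Slco and Slc47a. These patterns matched 92 of 48425 genes, of which 50 were ABC genes and 42 were organic ion transporter genes. Each gene was taken whatever its level. Mesothelial cells form the lining of the body cavities. The cells came from 4 untreated C57BL/6 mice aged 10 weeks, whose columns are labelled WT (wild type), with 1 RNA-seq library per animal. The cells form 1 group of freshly isolated cells, so the series holds no contrast between conditions. Trypsin released them from the cavity wall, and the sort kept cells that lacked CD45 and carried podoplanin and Gpm6a. The sex of the mice is not given in the labels. The 9 mesothelial marker genes listed for this check, which include the gate's own Pdpn and Gpm6a, all lay above 1 CPM (counts-per-million of the library's column total). Their summed level was 14283 to 16197 CPM per animal.

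ABC proteins use ATP to move lipids, sterols, peptides, drugs and conjugated metabolites across membranes, and a few of them serve ribosomes instead of membranes. Members of the Slc22 family carry organic cations, anions and zwitterions such as carnitine. Slco genes encode organic anion transporting polypeptides that take up bile acids, steroid conjugates and prostaglandins, and Slc47 genes encode proton-coupled exporters of organic cations. In the liver, kidney and gut the 3 organic ion families serve the clearance of drugs and metabolites, while many ABC members have housekeeping roles in mitochondria, peroxisomes and lysosomes.

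The level of each gene was tested against 1 CPM. Of the 92 genes 39 exceeded it in the quasi-likelihood test of edgeR (one-sided, Benjamini-Hochberg adjusted p under 0.05 over 48425 genes). That is 42.4% of them, beside 24.7% of all genes of the table and 50.9% of the 21492 genes annotated as protein-coding. The share among the transporters therefore lay between these backgrounds. A further 24 genes had counts and did not pass, and 29 were at 0 in every library. A count of 0 in all 4 libraries allows up to 0.171 CPM, taken as 3 counts over the group, and covers counting error only. By class, 29 of 50 ABC genes passed and 8 were at 0, while 10 of 42 organic ion transporter genes passed and 21 were at 0. The summed level of the 92 genes was 1105, 977, 1105 and 1051 CPM in animals 1 to 4, and Abcb1b alone held 14.1% of the mean sum.

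**Figure D1:**
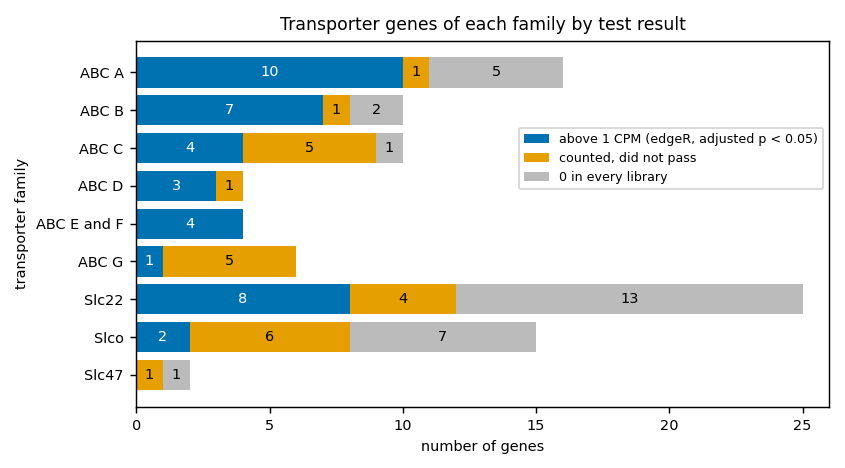
Number of genes (x axis) of each transporter family (y axis) that lay above 1 CPM in edgeR's test (blue), had counts but did not pass (orange) or were at 0 in every library (grey). All 4 genes of the E and F subfamilies passed, whereas 13 of 25 Slc22 genes and 7 of 15 Slco genes were at 0.

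The library totals were 4090224 to 4569578 estimated counts, so that 3 counts in 1 library stood for 0.657 to 0.733 CPM. With sorted cells in bulk, fewer cells expressing a gene and less RNA per cell cannot be told apart. Animals are called 1 to 4 after the sample titles, and values below are in that order, as mean ± SD over the 4 animals where a mean is given. CPM are not divided by transcript length, so an order of genes by CPM is not an order of transcript numbers, and differences between genes were tested only per kilobase. Markers of other cells differed between animals. The summed level of 10 fibroblast markers was 15100.2, 22467, 19829 and 14828 CPM in animals 1 to 4, and 9 of the 10 passed. Dcn alone held 10961, 15498, 13707 and 11391 CPM of these sums, and Col3a1 had the next highest mean at 2741 ± 917 CPM. Pdgfra had 25.5 ± 7.56 CPM and Dpt 7.97 ± 6.43 CPM, and Pi16 did not pass, at 1.55 ± 0.86 CPM. The summed level of 8 leukocyte markers was 19.8, 5.28, 1.06 and 0.994 CPM, none passed in the edgeR test, and Itgam was at 0. Of the markers of smooth muscle and pericytes 5 of 8 passed, with sums of 98.5 to 187 CPM and Notch3 at 0. Of those of blood endothelium 2 of 7 passed, with sums of 35.6 to 69.6 CPM and Cdh5, Emcn and Cldn5 at 0. Most of these sums came from Kdr, at 49.2 ± 14.1 CPM, and the other passing gene, Tek, had 2.64 ± 3.47 CPM. Of 5 hepatocyte markers none passed in the edgeR test, and 4 of them, among them Alb, were at 0. Of 5 kidney proximal tubule markers only the endocytic receptor gene Lrp2 passed, at 79.2 ± 6.98 CPM, and Slc34a1, Slc5a2 and Kap were at 0. The part of other cells in the levels below was not tested.

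Several transporter genes share sequence with a close copy or with another annotated gene, and their estimated counts depend on how reads were divided between them. The number of 31-base words, the word length used here to measure shared sequence, was counted over all annotated transcripts of each gene in GENCODE M21 (GRCm38). More than 10% of the words were shared with another gene for 14 of the 92 genes, of which 6 passed the test. Of the words of Abcb1b, 17.4% occurred in another gene, against 28.2% for Abcb1a. For Slc22a5 and Slc22a21 the shares were 37.8% and 30.8%. For Abcb6 the share was 52.1%, all of it with Gm29253. For Abca3 the share was 12.1%, and 8.81% of its words occurred in D330041H03Rik. Neither Gm29253 nor D330041H03Rik is among the 92 genes. The values of these 6 genes are uncertain, and the error that shared sequence adds to their estimated counts was not measured. The same limit holds for Slco1a6, which did not pass and had a share of 13.6%. The coding sequences of Abcb1b and Abcb1a were identical at 88.1% of 3819 aligned bases, with a longest identical run of 338 bases. Those of Slc22a5 and Slc22a21 were identical at 90.5% of 1671 aligned bases, with a longest identical run of 157 bases. The stretches that follow are shown because they hold the end of each longest identical run, where reads of the copies become distinguishable. Each is 120 bases of the coding sequence of the longest protein-coding transcript, 5′ to 3′, from the GENCODE M21 transcripts, and capitals mark the bases at which the copies differ. The Abcb1b stretch spans coding bases 1644 to 1763 and the Abcb1a stretch 1635 to 1754, on the plus strand of chromosome 5.
Abcb1b: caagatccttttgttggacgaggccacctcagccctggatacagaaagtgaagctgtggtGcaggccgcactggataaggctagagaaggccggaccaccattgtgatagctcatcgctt
Abcb1a: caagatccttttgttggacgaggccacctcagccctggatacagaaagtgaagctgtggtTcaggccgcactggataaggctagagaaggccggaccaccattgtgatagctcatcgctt
The Slc22a5 stretch spans coding bases 1386 to 1505 and the Slc22a21 stretch 1395 to 1514, on the minus strand of chromosome 11.
Slc22a5: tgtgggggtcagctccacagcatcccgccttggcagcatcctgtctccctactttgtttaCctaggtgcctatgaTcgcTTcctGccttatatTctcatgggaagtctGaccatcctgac
Slc22a21: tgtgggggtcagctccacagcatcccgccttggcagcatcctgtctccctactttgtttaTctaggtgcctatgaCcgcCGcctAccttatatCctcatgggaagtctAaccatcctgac
The Abcb1 stretches differ at 1 of 120 bases and the Slc22a stretches at 7. A read that lies within an identical run cannot be placed by sequence alone.

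In subfamily B 7 of 10 genes passed, or 70%, beside 50.9% of protein-coding genes, and both drug pumps were among them. Abcb1b and Abcb1a encode the rodent P-glycoproteins, plasma membrane pumps that expel hydrophobic drugs and other lipophilic compounds. Abcb1b, on chromosome 5 at 8798147 to 8866315, had 253, 95.9, 111 and 136 CPM in animals 1 to 4, a mean of 149 ± 71.1 CPM. Animal 1 was well above the other 3. Animal 1 also had the highest sum of leukocyte markers, and the part of those cells in this value was not tested. Abcb1a, on chromosome 5 at 8660077 to 8748575, had 32.1, 9.49, 38.8 and 34.2 CPM. Animal 2 was the lowest for Abcb1a. It was also the animal with the highest sum of fibroblast markers, whose part in this and the other values low in animal 2 was not tested. Per kilobase of median transcript length Abcb1b ranked first of the 92 genes, at 216 CPM per kb, and it also ranked first per kilobase of the longest transcript, at 34.6 CPM per kb. The median over its 9 annotated transcripts was 690 bases and the longest had 4306 bases, so the first value rests on a short length.

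The mitochondrial and lysosomal half-transporters of subfamily B were present as well. Abcb8, a mitochondrial inner membrane member, had 25.2, 22.2, 33.0 and 27.4 CPM. Abcb6, which is linked to porphyrin transport, had 10.4, 6.47, 17.3 and 7.94 CPM. Abcb10, a mitochondrial member that takes part in heme synthesis, had 11.7, 10.4, 14.6 and 3.78 CPM. All 12 of these values lay above 1 CPM, and animal 3 was the highest for each of the 3 genes. Abcb9, a lysosomal peptide transporter, passed with a mean of 3.28 ± 4.56 CPM (adjusted p = 0.0113 by edgeR), but its values were 0.414, 9.96, 2.40 and 0.346 CPM. Animal 2 held most of its counts, and without animal 2 the call was lost (adjusted p = 1 by edgeR, with a range of 8.13e-05 to 1 over all alternatives). Of the genes of biliary secretion, Abcb4, the phosphatidylcholine floppase, had 1.51 counts in all, and Abcb11, the bile salt export pump, was at 0, as was Abcb5.

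**Figure D2:**
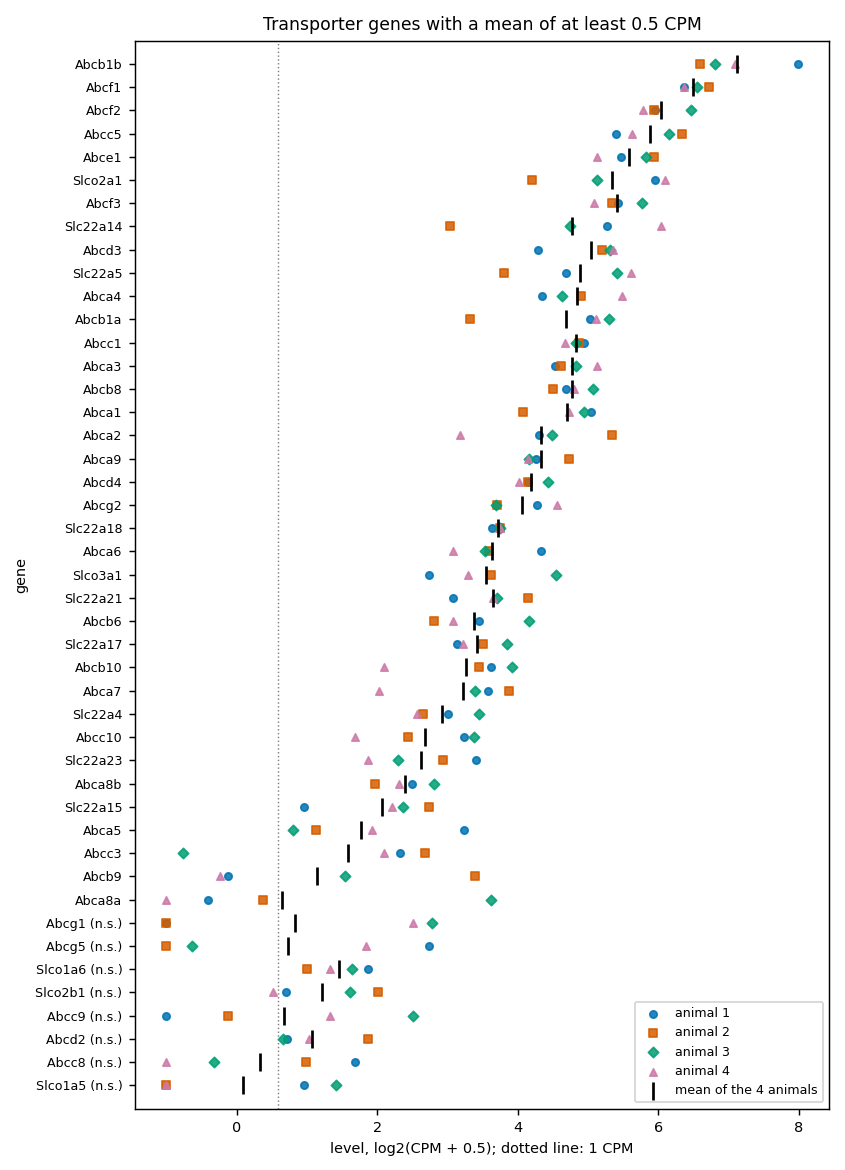
Level of 45 transporter genes with a mean of at least 0.5 CPM, as log2(CPM + 0.5) on the x axis and ordered by mean CPM; each colored symbol is 1 animal, the black bar the mean of the 4 values, and n.s. marks genes that did not pass edgeR's test. Abcb1b stands highest in CPM, with animal 1 to the right of the others, Abca8a is led by animal 3 and Abcb9 by animal 2, and the animals of Slco1a6 lie closer together.

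Of the lipid transporters of subfamily A 10 of 16 genes passed, or 62.5%, near the 50.9% of protein-coding genes. Their summed level was 159, 167, 162 and 149.5 CPM in animals 1 to 4. Abca4, on chromosome 3 at 122044443 to 122180123, is known as the retinoid flippase of photoreceptor discs and had 19.7, 29.4, 24.1 and 44.1 CPM. Abca3, which loads phospholipid into lamellar bodies of the lung, had 22.6, 24.03, 27.8 and 34.3 CPM. Abca1, on chromosome 4 at 53030787 to 53159895, which passes cholesterol and phospholipid to lipid-poor apolipoproteins, had 32.4, 16.3, 30.4 and 26.01 CPM. In each of these genes the lowest animal lay above 15 CPM, and animal 4 was the highest for Abca4 and Abca3. Abca2, an endosomal and lysosomal member best known from brain, had 19.1, 40.1, 21.9 and 8.54 CPM, with animal 2 the highest and animal 4 the lowest. Abca7, a phospholipid transporter related to Abca1, had 9.77 ± 4.47 CPM.

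The remaining genes that passed in subfamily A lie side by side on chromosome 11, between 109932190 and 110337716 (GRCm38). All 5 genes of this cluster passed, beside 50.9% of protein-coding genes. Abca9 had 18.7, 25.9, 17.4 and 17.3 CPM and Abca6 19.6, 11.6, 11.1 and 7.96 CPM. Abca9 was highest in animal 2 and Abca6 in animal 1. Abca8b had 4.86 ± 1.29 CPM and Abca5 3.79 ± 3.54 CPM. The functions of these members are less well defined than that of Abca1. Abca8a passed with a mean of 3.20 ± 5.71 CPM (adjusted p = 0.0326 by edgeR), but had 0.254, 0.799, 11.7 and 0 CPM in animals 1 to 4. Its level rested on animal 3, and without that animal it was not called (adjusted p = 1 by edgeR, with a range of 0.000468 to 1 over all alternatives). The call of Abca5, whose values were 8.92, 1.68, 1.24 and 3.31 CPM, was lost without animal 1 (adjusted p = 0.217 by edgeR, with a range of 1.34e-06 to 0.217 over all alternatives). Abca13 had 4.77 counts, and Abca12, the lipid transporter of the epidermis, was at 0 with Abca14, Abca15, Abca16 and Abca17.

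Among the multidrug resistance-associated proteins of subfamily C, 4 of 10 genes passed, or 40%, beside 50.9% of protein-coding genes. Abcc5, on chromosome 16 at 20331303 to 20426394, an exporter of organic anions and cyclic nucleotides, had 41.5, 79.9, 70.3 and 48.9 CPM. Abcc1, on chromosome 16 at 14361558 to 14475737, which exports glutathione conjugates such as leukotriene C4, had 30.2, 28.8, 27.9 and 24.9 CPM. Abcc1 was among the least variable genes: its coefficient of variation over the animals was 7.92%, below the 9.01% that counting error alone gives at its mean count. Abcc10 had 6.60 ± 3.36 CPM. Abcc3, an exporter of glucuronide conjugates, had 4.48, 5.88, 0.0859 and 3.75 CPM and was under 1 CPM in animal 3. Without animal 2 the call of Abcc3 was lost (adjusted p = 0.0732 by edgeR, with a range of 2.35e-05 to 0.997 over all alternatives). Abcc4, which exports cyclic nucleotides and prostaglandins in other cells, had 2.95 counts in all, and the canalicular conjugate exporter Abcc2 was at 0.

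Abcc8 and Abcc9 encode the sulfonylurea receptors, the regulatory subunits of ATP-sensitive potassium channels. Abcc9 had 0, 0.416, 5.16 and 2.002 CPM and Abcc8 2.71, 1.48, 0.301 and 0 CPM, and neither passed (adjusted p = 0.366 and 1 by edgeR). Abcc9 was higher in animals 3 and 4, and Abcc8 in animals 1 and 2. The pore subunit gene Kcnj8 had 11.7, 44.8, 29.4 and 21.5 CPM in the same libraries and Kcnj11 was at 0. Abcc6 and Abcc12 had 3.84 and 1.11 counts.

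Subfamily D holds half-transporters of peroxisomes and lysosomes. Abcd3, on chromosome 3 at 121758774 to 121815302, which imports branched-chain fatty acids and bile acid precursors into peroxisomes, had 19.1, 36.3, 39.2 and 40.5 CPM. Abcd4, which serves cobalamin release from lysosomes, had 17.2, 17.3, 21.1 and 15.7 CPM. Both genes passed, beside 50.9% of protein-coding genes. Abcd3 was lowest in animal 1, and the values of Abcd4 had a coefficient of variation of 13.0%. Abcd2, a peroxisomal fatty acid importer, had 1.14, 3.15, 1.07 and 1.54 CPM and did not pass (adjusted p = 0.421 by edgeR). The peroxisome assembly genes Pex19 and Pex3 had 137 ± 12.7 and 22 ± 10.5 CPM.

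Subfamilies E and F hold ABC proteins without membrane domains, which act on ribosomes. All 4 genes passed, beside 50.9% of protein-coding genes, with coefficients of variation from 12.1% to 24.5%. Abcf1, on chromosome 17 at 35956819 to 35969761, had 81.6, 104, 93.4 and 81.8 CPM and Abcf2 61.6, 61.0, 87.4 and 54.4 CPM. Abce1, which splits ribosomes after termination, had 43.5, 60.6, 56.3 and 34.5 CPM, and Abcf3 had 42.3, 40.1, 54.0 and 33.4 CPM. No value of these genes was under 30 CPM, and animal 4 was the lowest for Abcf2, Abce1 and Abcf3. Their summed level was 248 ± 38.6 CPM.

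Of the 6 subfamily G half-transporters, which handle sterols and drugs, only Abcg2 passed, or 16.7%, beside 50.9% of protein-coding genes. Abcg2, on chromosome 6 at 58584523 to 58695676, exports urate and many drugs and had 18.8, 12.5, 12.4 and 23.0 CPM. Abcg1, which passes sterols to mature lipoproteins, had 0, 0, 6.37 and 5.21 CPM. It had no count in animals 1 and 2 and did not pass (adjusted p = 0.0603 by edgeR). Without animal 1 or without animal 2, Abcg1 was called, at adjusted p = 0.005 and 0.0026 by edgeR, and its range over all alternatives was 0.00104 to 1. Abcg5 and Abcg8 form the sterol exporter of liver and gut. Abcg5 had 6.16, 0, 0.145 and 3.07 CPM (adjusted p = 0.141 by edgeR), and Abcg8 had 5.46 counts, all in animal 1. Abcg5 was called without animal 2 or without animal 3, at adjusted p = 0.0129 and 0.0384 by edgeR, and its range over all alternatives was 0.00301 to 1. Abcg4 and Abcg3 had 8.42 and 3.67 counts.

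In the Slc22 family 8 of 25 genes passed, or 32%, beside 50.9% of protein-coding genes. Slc22a14, on chromosome 9 at 119169455 to 119365553, is known from mouse testis, where it is needed for sperm function, and had 38.2, 7.70, 26.3 and 65.5 CPM. Animal 4 was the highest and animal 2 the lowest. None of its 31-base words occurred in another annotated gene. Its annotated span, on the minus strand, holds Slc22a13 on the same strand at 119192974 to 119209098, and Slc22a13 was at 0. Slc22a5, the carnitine transporter, had 25.2, 13.5, 41.9 and 48.4 CPM, again with animal 4 the highest and animal 2 the lowest. Slc22a21, its close copy in the mouse, had 7.92, 17.2, 12.6 and 11.97 CPM, with animal 2 the highest, and Slc22a4, the ergothioneine transporter, had 7.29 ± 2.31 CPM. These last 3 genes lie side by side on chromosome 11 between 53864542 and 54028090, and all 3 passed.

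Slc22a18, an imprinted member, had 11.9, 13.0, 13.0 and 12.9 CPM in animals 1 to 4, a coefficient of variation of 4.17% where counting error alone gives 13.4%. Slc22a17, which encodes a lipocalin 2 receptor, had 10.5 ± 2.55 CPM, and its ligand gene Lcn2 had 11.7, 10.8, 2.63 and 7.26 CPM. Slc22a23 and Slc22a15, whose substrates are less well known, had 6.20 ± 3.09 and 4.101 ± 1.98 CPM. The classical organic cation transporters Slc22a2 and Slc22a3, neighbors on chromosome 17, were at 0 in every library. So were the renal organic anion transporters Slc22a6 and Slc22a8, the urate exchanger Slc22a12, and Slc22a7. Within 955.2 kb of chromosome 19, 8 Slc22 genes, among them Slc22a6 and Slc22a8, lie together. None of the 8 passed in the edgeR test, beside 50.9% of protein-coding genes. The means of all 8 were at most 0.108 CPM, and 5 were at 0. Slc22a13, Slc22a16 and Slc22a22 were also at 0, and Slc22a20 had 0.952 counts.

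In the Slco family 2 of 15 genes passed, or 13.3%, beside 50.9% of protein-coding genes. Slco2a1, on chromosome 9 at 102988712 to 103096002, encodes the prostaglandin uptake transporter and had 61.4, 17.9, 34.3 and 67.5 CPM. Animals 1 and 4 were the highest and animal 2 the lowest, a spread of 51.4% around the mean against 7.11% from counting error. Genes of prostaglandin handling were present beside it: the prostacyclin synthase gene Ptgis had 589 ± 84.1 CPM, Ptgs1 279 ± 109 CPM and Hpgd, which inactivates prostaglandins, 265 ± 113 CPM. Slco3a1, a widely expressed member, had 6.17, 11.8, 22.9 and 9.25 CPM, with animal 3 the highest. Slco1a6, of the hepatic and renal Slco1 group, had 3.14, 1.501, 2.60 and 2.01 CPM (adjusted p = 0.0568 by edgeR) and lay above 1 CPM in 4 of 4 animals without passing. It passed by limma with voom weights (adjusted p = 0.00573). Over all alternatives its adjusted p was 0.000337 to 1, with both ends from tests against 0.5 and 2 CPM. Against 1 CPM it was 0.00573 by limma to 0.231 by edgeR without animal 1. Slco2b1 had 1.12, 3.52, 2.56 and 0.936 CPM and Slco1a5 1.44, 0, 2.16 and 0 CPM, and neither passed (adjusted p = 0.169 and 1 by edgeR). Over genes with at least 10 counts Slco1a6 and Slco2b1 were called, at adjusted p = 0.013 and 0.0456 by edgeR. The adjusted p of Slco2b1 over all alternatives was 0.00211 to 1. Against 1 CPM it was 0.0456 to 0.77, both by edgeR and the second without animal 2.

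The other Slco genes were sparse. Slco5a1, Slco1a4 and Slco1c1 had 4.24, 3.57 and 2.87 counts in all. Slco1b2, the main organic anion uptake transporter of mouse liver, was at 0, as were Slco1a1, Slco4a1, the renal member Slco4c1 and Slco6b1, Slco6c1 and Slco6d1. Within 1177.9 kb of chromosome 6, 6 Slco1 genes lie together with Abcc9. None of these 7 genes passed in the edgeR test, beside 50.9% of protein-coding genes. Of the proton-coupled exporters, Slc47a1 had 0, 0, 0.213 and 0 CPM and Slc47a2 was at 0.

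Genes of related function that the symbols do not catch were counted by list. Of the transporters with the same roles 10 of 16 had a level above 1 CPM by edgeR, beside 50.9% of protein-coding genes. The same share stands beside the counts of regulators and partners below, and no difference from it was tested. Tap2 and Tap1, the ABC peptide pumps that load class I molecules, had 105 ± 23.5 and 90.2 ± 35.3 CPM, and the nucleoside transporter Slc29a3 32.2 ± 6.86 CPM. Cftr, an ABC protein that works as a chloride channel, had 14.8, 0.207, 2.79 and 11.1 CPM, high in animals 1 and 4. Slc51a and Slc29a4 were at 0. Of 17 regulators 11 passed: Nfe2l2, the antioxidant response factor, had 275 ± 56.0 CPM, the sterol receptor gene Nr1h2 92.7 ± 17.9 CPM and Mylip, which marks the LDL receptor for degradation, 69.4 ± 22.6 CPM. The drug-sensing receptor gene Nr1i2 was at 0, as was Pparg, while Nr1i3 had 1.20 counts. Of 24 partner genes 20 passed, and the 3 with the most CPM, not divided by length, were the extracellular chaperone gene Clu at 3599.99 ± 630.01 CPM, Bsg, a partner of membrane transporters, at 1365 ± 150.1 CPM and Tapbp, which tethers the peptide pump, at 941 ± 106 CPM. Apoe, an acceptor of exported sterol, had 764 ± 175 CPM and Apoa1 0, 4.93, 0 and 0.475 CPM, and Kcnj11 and Pdzk1 were at 0.

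The transporter genes that passed varied between animals by a median coefficient of variation of 35.3%, beside 27.4% over all genes that passed. Of the 39 genes 25 lay above that median of all genes. The genes behind these medians were not matched for count level, on which the coefficient depends, and the difference was not tested. The largest coefficients belonged to Abca8a at 178%, Abcb9 at 139%, Abca5 at 93.3% and Slc22a14 at 70.4%. In 36 of the 39 genes every animal lay above 1 CPM, and the exceptions were Abca8a, Abcb9 and Abcc3. No animal was the highest throughout: animal 3 was the highest for 15 of the 39 genes, animal 2 for 11, animal 4 for 7 and animal 1 for 6. This count was not made over all genes that passed, nor on another scaling, so it shows no trait of the transporters. The TMM effective library size of animal 3 was 4845081, against a column total of 4554370, so its values are lower on the TMM scale. Summed levels of ABC genes varied by 5.82% and those of the organic ion transporters by 28.0%, with 185, 116, 193 and 241 CPM in animals 1 to 4. The sums of single ABC subfamilies varied by 4.71% (A) to 34.9% (G), beside 27.4% for Slc22 and 31.9% for Slco. The class sums hold unlike numbers of passing genes, 29 for ABC and 10 for organic ion transporters, and their difference was not tested.

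**Figure D3:**
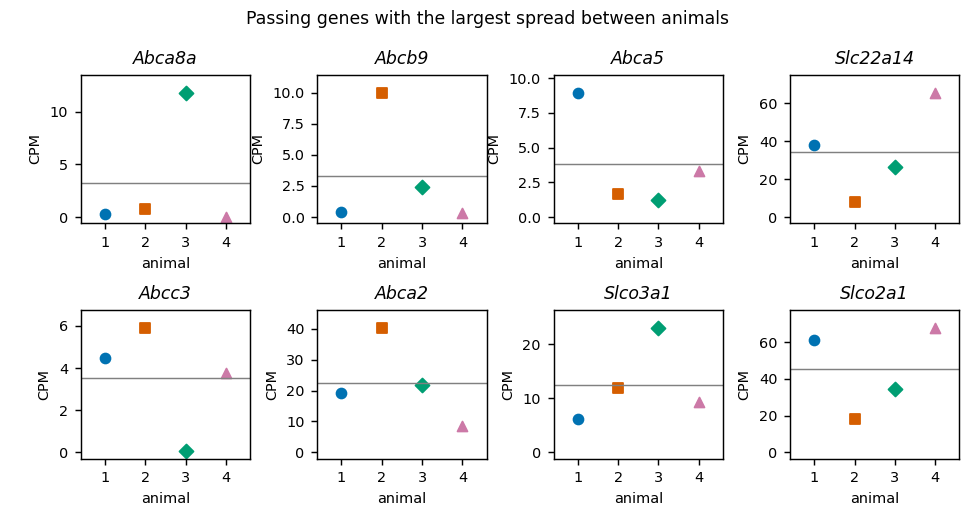
CPM (y axis, linear, a scale for each gene) in each animal (x axis) for the 8 genes above 1 CPM with the largest coefficient of variation; the grey line is the mean of the 4 animals. Animal 2 is the lowest for Slc22a14 and Slco2a1 and the highest for Abcb9, Abcc3 and Abca2.

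**Figure D4:**
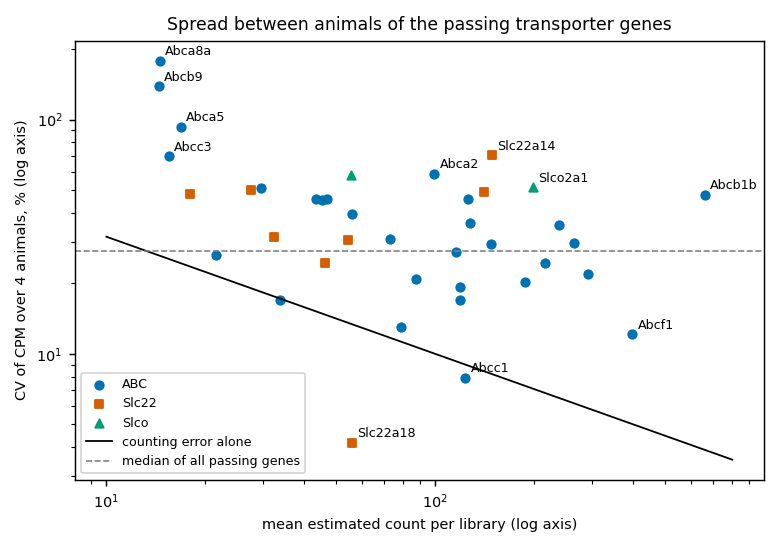
Coefficient of variation of CPM over the 4 animals (y axis, log scale) against the mean estimated count per library (x axis, log scale) for the 39 genes above 1 CPM; the black line is the variation that counting error alone would give and the dashed line the median of all genes above 1 CPM. Slc22a18 and Abcc1 lie under the counting line, and Abca8a and Abcb9 lie highest.

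Gene pairs of 1 family or of related role were compared within each animal as log2 of CPM + 0.5 per kilobase. The length used was the median over a gene's annotated transcripts. This median can lie far below the longest transcript, as for Abcf1 (755.5 against 3161 bases) and Abca2 (710 against 8033 bases). Of 18 pairs reported, 13 had at least 10 counts for both genes. With 4 animals the exact two-sided sign-flip permutation test cannot go below p = 0.13, so differences are given with their SD and the number of animals. In 8 pairs all 4 animals had the same direction, and in 7 of these the mean kept that direction with the longest transcript and with no division by length. Abcb1a lay below Abcb1b, with a log2 difference of -3.64 ± 0.83 (lower in 4 of 4 animals, exact permutation p = 0.13), and of -2.64 with the longest transcript. Abce1 was below Abcf1 (-2.26 ± 0.23), by the longest transcript at -1.17 and with no division by length at -0.91. Abcf1 was above Abcf3 (1.01 ± 0.28). Each of these held in 4 of 4 animals.

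In the sterol group, Abca7 was below Abca1 (-1.75 ± 1.02) in 4 of 4 animals with median lengths, and in 3 of 4 with the longest transcript, where the mean was -0.87. Abca1 was above Abcg1 by 1.53 ± 1.98 on average, and with median lengths was higher in animals 1 and 2, in which Abcg1 had no count, and lower in animals 3 and 4. With the longest transcript the mean was 3.06 and with no division by length 3.87, higher in 4 of 4 animals each time, and with a pseudocount of 0.1 CPM it was 2.71. Abcc1 was above Abcc3 by 2.25 ± 1.58 in 4 of 4 animals. Slc22a5 was above Slc22a4 by 1.61 ± 0.80 and Slc22a17 was below Slc22a18 (-1.02 ± 0.29), each in 4 of 4 animals. The mean of Slc22a17 over Slc22a18 was -1.82 with the longest transcript and -0.29 with no division by length, where 1 animal had the other direction. Abca2 was above Abca3 by 1.96 ± 1.11 in 4 of 4 animals with median lengths, and lower by the longest transcript (-0.76), so that its direction depended on the length used. The differences of Abcb1a to Abcg2, Abcc9 to Abcc8, Abca8a to Abca8b and Slco2a1 to Slco3a1 changed sign between animals with median lengths. The sign of the mean also depended on the length used. For Abcb1a over Abcg2 it was -0.63 with median lengths, 0.83 with the longest transcript and 0.64 with no division. For Abca8a over Abca8b the same values were 1.51, -1.34 and -1.74. For Slco2a1 over Slco3a1 they were -0.48, 1.16 and 1.79, the last of them higher in 4 of 4 animals. For Abcc9 over Abcc8 they were -2.11, -0.28 and 0.34. The 5 other pairs held a gene with fewer than 10 counts: Abcc4 with 2.95 counts in 3 of them, Slco4a1 at 0, and Slc47a1 and Slc47a2.

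**Figure D5:**
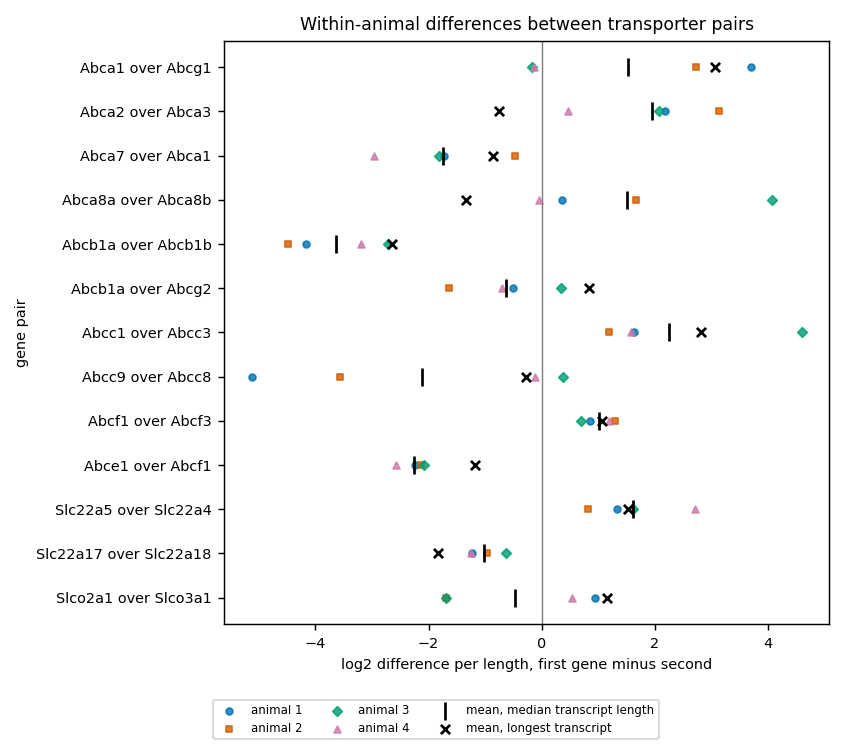
Within-animal log2 difference of (CPM + 0.5) per kilobase, first gene minus second (x axis), for the 13 pairs compared (y axis); colored symbols are the 4 animals with median transcript length, the black bar their mean and the cross the mean with the longest transcript. Abcb1a lies below Abcb1b in every animal, whereas the cross for Abca2 over Abca3 lies on the other side of 0 from its animals.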

How the data were processed

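The authors deposited estimated counts, 1 column per animal and 1 row per gene symbol. The unit was read from the values, of which at least 99.7% of those above 0 in a library were not whole (further than 0.000001 from an integer). Per the submitters' processing notes, kallisto 0.43.1, edgeR 3.24.3, limma 3.38.3 and GRCm38.p5 were used, with no role given. Per the labels' protocols, a rinse with 10 ml of saline preceded 5 ml of 0.25% trypsin with EDTA for 20 min at 37 °C, and ribosomal RNA was removed before library preparation. Strandedness and the step from transcripts to genes are not given in the sources used here. The study describes the replicates as separate animals.

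CPM are the column value over the column total. Estimated counts were rounded and fitted in edgeR 4.0.16 (R 4.3.3) with an intercept and column totals as offsets. Each gene's quasi-likelihood statistic against 1 CPM came from its deviances under the fit and the null, and the code was tested on simulated data. With a simulated variation of 42% between animals, 1.5% of 200 genes set at 1 CPM were called. Of 200 genes each set at 2 and 4 CPM, 56% and 99.5% were called, so genes near 2 CPM are often missed. The simulated variation was the same for every gene, so these shares do not cover genes that vary more, such as Abca8a at 178%. Intervals and floors cover counting error only. Alternatives were other scalings, tests (DESeq2 1.42.0, limma 3.58.1), a filter, thresholds, lengths, pseudocounts and leaving out each animal. A few genes and the pairs that hold them are not reported here, though the counts over families and lists include them. The other genes that passed are named, the 24 highest by CPM and the leading 2 genes of each family with every animal's value, as are genes that did not pass at 0.5 CPM or more. The genes, lists and pairs were chosen with earlier results of these data known. Lengths, positions and sequences are from GENCODE M21, matched by symbol for all 92 genes.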

Additional observations from a re-analysis of the deposited data

Results flagged for a closer look

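In 3 of the 47 genes with a mean of at least 0.5 CPM the gap between 1 animal and the nearest other was larger than Dixon's critical value for 4 samples (0.83 of the range), which chance alone exceeds in about 5% of groups. Abca8a stood at 11.7 CPM in animal 3, against 0.799 CPM in the next animal. Abca9 stood at 25.9 CPM in animal 2, against 18.7 CPM in the next. Slc22a18 stood at 11.9 CPM in animal 1, below values of 12.9 to 13.0 CPM in the others, a gap smaller than its counting error. No cause was tested for any of them.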

How the results depend on the processing

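The number of transporter genes above 1 CPM was 39 with column totals, TMM sizes and DESeq2 size factors, 38 by DESeq2's Wald test, 36 by limma with voom weights, 41 over genes with at least 10 counts, 45 against 0.5 CPM, 35 against 2 CPM and 39 to 39 leaving out each animal. Of the 47 genes at 0.5 CPM or more, 35 kept both call and direction in all of these settings. The calls of Abca5, Abca8a, Abcb9 and Abcc3 were lost by limma and against 2 CPM, and that of Abca8a also by DESeq2. Calls were gained for Slco1a6 and Slco2b1 over genes with at least 10 counts. By limma the fitted log2 level fell under 1 CPM for Abca8a (-0.30), Abcg1 (-0.33), Abcg5 (-0.10), Abcc9 (-0.15) and Abcc8 (-0.65), and the cause was not tested. Abcc9 (0.94), Abcd2 (0.78) and Abcc8 (0.083) lay under 2 CPM and Slco1a5 (-0.092) over 0.5 CPM by the construction of those thresholds. Leaving out 1 animal moved the log2 level across 1 CPM for Abca8a (-1.72 to 2.09), Abcc9 (-0.33 to 1.36), Abcc8 (-0.91 to 0.49) and Slco1a5 (-0.95 to 0.32). Abca2 over Abca3 was -0.76 with the longest transcript and -0.45 with no division by length. No paired analysis was possible because the series holds 1 group, so no samples could be paired across groups, and the gene pairs are comparisons within each animal. Genes near 1 CPM rest on about 4 counts per library, and a failure to pass there does not show absence.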
